A study of Mus musculus with 6 samples.

Results

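Amino acids cross the plasma membrane on carrier proteins of the solute carrier (SLC) families, and 10 genes for such carriers are described here in mouse cell lines from the hypothalamus. They were Slc6a15, Slc6a6, Slc6a9, Slc7a1, Slc7a3, Slc7a5, Slc7a11, Slc3a2, Slc38a1 and Slc38a2. All 10 of the 10 were measured, out of 12393 genes tested, by 13 probe sets named for 1 of them alone, and 0 probe sets named one of them together with another gene. Slc6a15 was selected on its large difference between A_212 and N_46 on these arrays, so its values are a description without a test. The other 9 were chosen as carriers for amino acids, with earlier results of these data known, and nothing is read from their number.

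The adult-derived line A_212 and the embryonic-derived line N_46 were each grown on 3 plates to 70% confluence in DMEM with 5% fetal bovine serum, and 1 oligonucleotide array was run per plate, 6 in all. Both lines came from mouse hypothalamus, were immortalised with SV40 T-antigen, a viral oncoprotein that blocks p53 and RB, and are labelled as expressing Npy, the gene of the feeding peptide neuropeptide Y. Both sets of plates are controls by their source names, and no other treatment is given. Each age of origin is represented by 1 line, so age and line cannot be told apart, and p-values measure the spread between plates. The labels do not give the embryonic day, the strain, or whether a line is a clone.

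Values are on a log2 scale and were centred before deposit, so that for each probe set the 6 arrays have a median of 0. A value is therefore a position relative to the other arrays, and no gene has an expression level. Whether a carrier or a marker of neurons was expressed at all cannot be read from such values, and carriers cannot be ranked by abundance. Where the lines do not overlap on a probe set, centring also makes the highest array of one line and the lowest of the other equal in size and opposite in sign. The mean of several probe sets of a gene need not have this symmetry. Differences are N_46 minus A_212 on a log2 scale whose base is inferred and not stated, a positive value meaning more in N_46, and each fold rests on base 2. In RNA of whole cultures, fewer cells of a type and less RNA per cell cannot be told apart.

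SLC6 carriers use the sodium gradient, and many but not all also that of chloride, to pull amino acids into the cell against their concentration. SLC7 proteins are either cationic amino acid carriers that work alone or light chains, most of which need the heavy chain encoded by Slc3a2 to reach the membrane. Most such pairs are exchangers that let one amino acid in as another leaves. SLC38 carriers take up glutamine and other small neutral amino acids together with sodium, and so supply the exchangers with substrate. In many cells, shortage of amino acids or stress in the endoplasmic reticulum raises the transcription factor ATF4, which binds composite elements called CARE in genes for carriers, amino acid synthesis and tRNA charging.

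Slc7a11 and Slc3a2 encode the light and heavy chain of the same exchanger, and the bases before their start sites are shown because Slc7a11 is the 1 gene of those with a sequence that holds CARE letters. The RefSeq table of promoter windows (GRCm38.p6, 250 bases before to 50 after a start site) held 8 windows for 5 of the 10 genes, namely Slc6a9, Slc7a1, Slc7a11, Slc3a2 and Slc38a2. The motif searched was TGATGNAA on either strand, which reads TTNCATCA on the other. Below, 5′ to 3′, are the 250 bases before the start site of Slc7a11 (chr3:50443614-50443863, minus strand) and of Slc3a2 (chr19:8713898-8714147, minus strand), with motif matches in capitals.
Slc7a11: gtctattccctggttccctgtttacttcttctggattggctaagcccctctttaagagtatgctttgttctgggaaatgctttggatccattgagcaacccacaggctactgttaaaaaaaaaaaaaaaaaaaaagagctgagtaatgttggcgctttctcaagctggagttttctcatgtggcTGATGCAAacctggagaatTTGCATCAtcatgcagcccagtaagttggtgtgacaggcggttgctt
Slc3a2: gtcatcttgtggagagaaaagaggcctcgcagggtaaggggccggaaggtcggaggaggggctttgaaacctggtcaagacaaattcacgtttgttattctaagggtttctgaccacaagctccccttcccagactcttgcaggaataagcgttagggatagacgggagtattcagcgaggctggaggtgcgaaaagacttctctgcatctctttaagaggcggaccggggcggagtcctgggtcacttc
The Slc7a11 window held a pair of matches that do not overlap, TGATGCAA at bases 66 to 59 before the start site and TTGCATCA, the same letters on the other strand, at bases 47 to 40. Of all 32851 windows in the table, 3.97% held the motif and 0.07% held 2 or more matches. Such matches are letters in a window, not shown sites of binding, and their absence from the other 7 windows says only that these letters are not there.

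Of the 9 carriers besides Slc6a15, 7 were higher in N_46 by limma, with an adjusted p under 0.05 over all genes. Of the same 9, 0 were higher in A_212 (1, Slc6a6, at an unadjusted p under 0.05) and 2, Slc6a6 and Slc38a2, did not pass. Among all genes tested, 20.9% were called higher in N_46, 18.3% higher in A_212 and 39.2% in either direction. The median difference of the 9 was 0.54, beside 0.06 over all genes. For 8 of the 9 the arrays of A_212 and N_46 did not overlap, as for 51.1% of all genes. None of the 9 reached 2-fold, the largest fold being 1.93 for Slc38a1, whereas 5.83% of all genes were called at 2-fold or more in either direction and 2.22% higher in N_46.

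**Figure D1:**
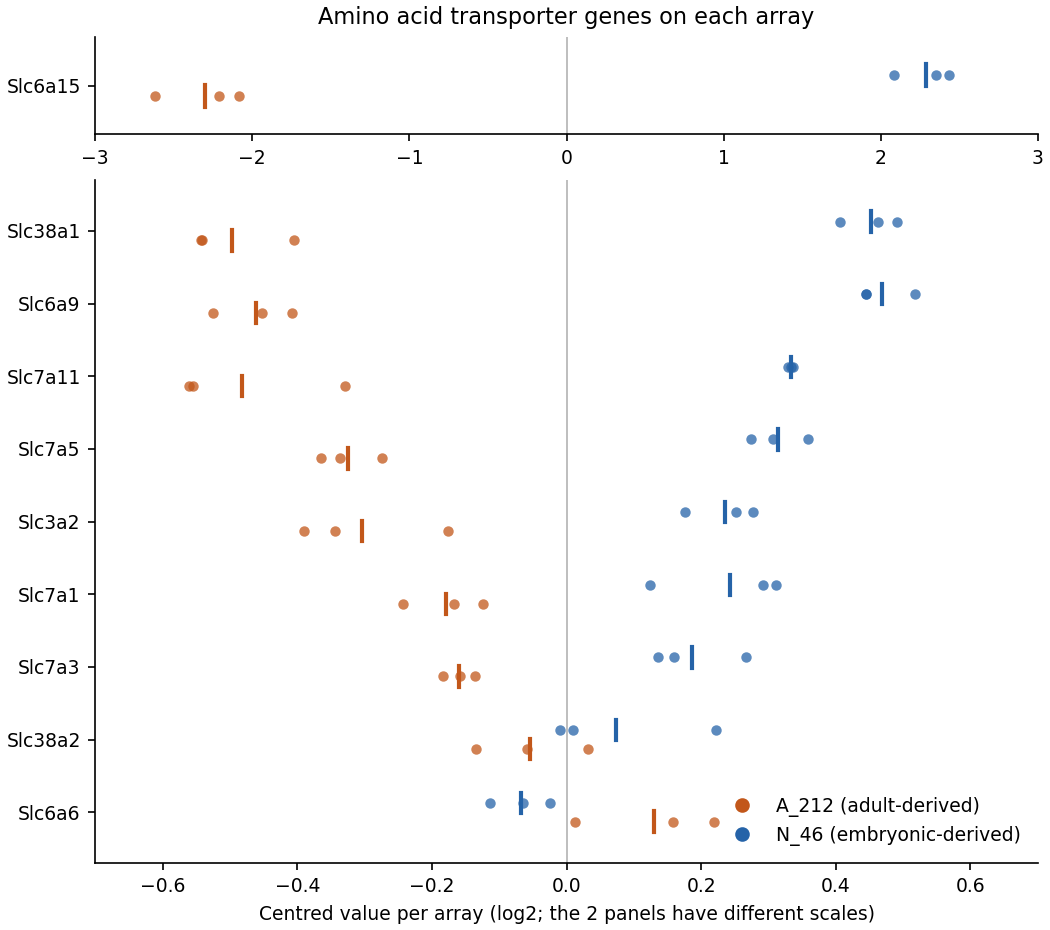
Centred log2 value of each carrier gene (rows) on each of the 6 arrays, with A_212 in orange and N_46 in blue; points are arrays and short bars the mean of 3 arrays, and the upper panel has a wider scale. Slc6a15 lies between 2.08 and 2.44 in N_46 and between -2.62 and -2.08 in A_212, and the lines overlap for Slc38a2 alone.

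Slc6a15 encodes a sodium-coupled carrier of branched-chain amino acids, proline and other large neutral amino acids that is found mainly in neurons. Its single probe set read -2.62, -2.21 and -2.08 on the A_212 arrays and 2.44, 2.35 and 2.08 on the N_46 arrays. All 3 N_46 arrays were far above all 3 A_212 arrays, with an SD of 0.28 in A_212 and 0.18 in N_46. The difference was 4.59 ± 0.14 (SE, n = 3 arrays per line), or 24.2-fold. In size it ranked 14 among the 12393 genes.

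The genes whose 6 values were most like those of Slc6a15, by root mean square difference over the 6 arrays and leaving out predicted and clone names, were Epb41l4a, Mest and Penk. That difference was 0.28 for Epb41l4a, which encodes a protein that links membrane and cytoskeleton, 0.29 for the imprinted gene Mest and 0.39 for Penk, which encodes proenkephalin. Such likeness over 6 arrays of a pair of lines follows mainly the size of the difference between the lines. The nearest measured genes on each side of Slc6a15 on chromosome 10, in the gene order of GRCm38.p6, were Rassf9 and Ccdc59. They differed by 0.30 ± 0.08 and 0.46 ± 0.07 in the same direction (limma adjusted p = 0.0089 and 0.00043).

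Slc6a9 encodes a glycine carrier that astrocytes, and also some neurons and other cells, use to clear glycine from outside the cell. It read -0.45, -0.41 and -0.53 in A_212 and 0.44, 0.44 and 0.52 in N_46. The groups lay well apart, and the difference was 0.93 ± 0.07 (SE, n = 3 arrays per line; limma adjusted p = 2.5e-06), or 1.91-fold. Its 2 probe sets gave 1.05 (95% interval 0.88 to 1.23) and 0.81 (0.64 to 0.98), so both had the same sign and their intervals overlap.

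Slc6a6 encodes the carrier of taurine, an amino acid that cells store against osmotic stress, and it was the 1 carrier of the 10 with a negative difference. It read 0.01, 0.16 and 0.22 in A_212 and -0.02, -0.06 and -0.11 in N_46. In this mean of its probe sets the lines did not overlap, but replicate 1 of A_212 lay close to the N_46 arrays. On the probe set with the largest difference (-0.27) the lines did overlap, with replicate 1 at -0.03 in A_212 and 0.03 in N_46. The difference of -0.20 ± 0.08 did not pass on all 6 arrays (limma adjusted p = 0.066) and passed without A_212 replicate 1 (-0.26, adjusted p = 0.033). Over the 13 alternatives that tested for any difference, limma adjusted p ranged from 0.033 to 0.21. Slc6a6 did not pass when tested against a bound of 1.2-fold. Each of its 3 probe sets had a negative difference, from -0.27 to -0.16, and 0 of the 3 passed (1 at an unadjusted p under 0.05) when limma was run on probe sets one by one, where 35.9% of all probe sets were called.

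**Figure D2:**
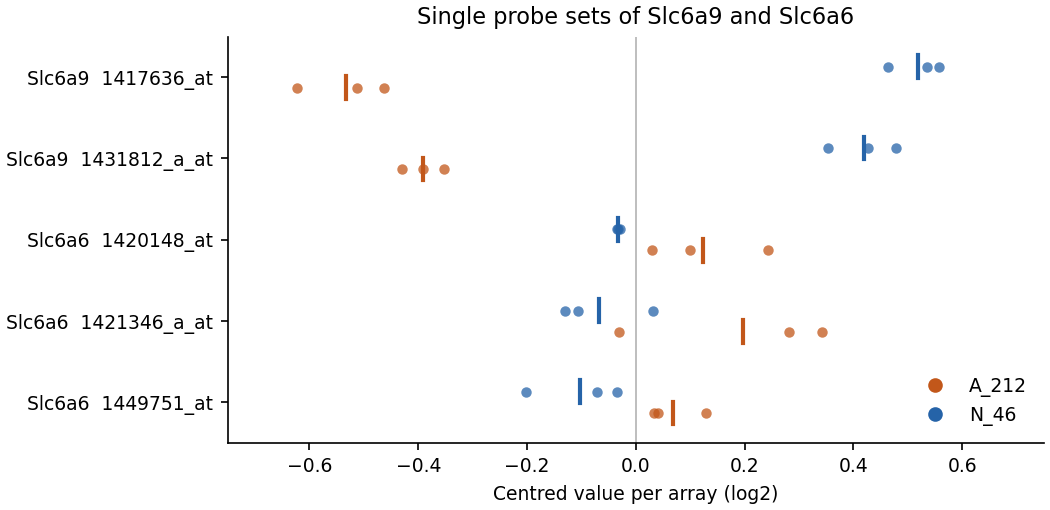
Centred log2 values of the single probe sets of Slc6a9 and Slc6a6, the carriers with more than 1; points are arrays, short bars are means of 3 arrays, orange is A_212 and blue is N_46. Both Slc6a9 probe sets separate the lines, with differences of 1.05 and 0.81. The 3 of Slc6a6 have differences of the opposite sign, from -0.27 to -0.16, and the lines overlap on the probe set at -0.27.

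Slc3a2, Slc7a5 and Slc7a11, the 3 exchanger subunits among the 10 carriers, were higher in N_46. The heavy chain gene Slc3a2, whose glycosylated product carries the light chains to the membrane, read -0.34, -0.18 and -0.39 in A_212 and 0.28, 0.18 and 0.25 in N_46, without overlap. Its difference was 0.54 ± 0.08 (SE, n = 3 arrays per line; limma adjusted p = 0.00032), or 1.45-fold.

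Slc7a5 encodes the light chain that imports leucine and other large neutral amino acids, mostly in exchange for glutamine. It read -0.36, -0.34 and -0.27 in A_212 and 0.27, 0.36 and 0.31 in N_46, with the lines again apart. The difference was 0.64 ± 0.07 (limma adjusted p = 3.6e-05), or 1.56-fold.

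Slc7a11, whose promoter letters are shown above, encodes the light chain that imports cystine for glutamate, the source of cysteine for glutathione. It read -0.33, -0.56 and -0.55 in A_212 and 0.33, 0.33 and 0.34 in N_46. The N_46 arrays lay together, with an SD of 0.0034, and in A_212 replicate 1 was the highest. The difference was 0.81 ± 0.08 (limma adjusted p = 1.9e-05), or 1.76-fold. The 95% intervals of Slc3a2 (0.36 to 0.71), Slc7a5 (0.49 to 0.79) and Slc7a11 (0.64 to 0.99) overlap, and whether the 3 subunits differ from each other in this was not tested.

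The cationic amino acid carriers Slc7a1 and Slc7a3 bring in arginine, lysine and ornithine without a heavy chain. Slc7a1, the widely expressed one, read -0.12, -0.17 and -0.24 in A_212 and 0.12, 0.29 and 0.31 in N_46, a difference of 0.42 ± 0.08 (limma adjusted p = 0.0015). Slc7a3, known from neurons and on the X chromosome, read -0.18, -0.14 and -0.16 in A_212 and 0.14, 0.16 and 0.27 in N_46, a difference of 0.35 ± 0.07 (limma adjusted p = 0.0027). In both the lines were apart, and the folds were 1.34 and 1.27. Neither passed when tested against a bound of 1.2-fold (limma treat, adjusted p = 0.18 and 0.53), whereas the other 5 called carriers did. Of all 12393 genes, 912 were higher in N_46 against that bound. The third member of the group, Slc7a2, an arginine carrier of liver, muscle and macrophages, differed in the opposite direction. It read 0.40, 0.61 and 0.54 in A_212 and -0.53, -0.47 and -0.42 in N_46, a difference of -0.99 ± 0.08 (limma adjusted p = 3.9e-06), with its 3 probe sets between -1.33 and -0.34.

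The SLC38 carriers did not go together. Slc38a1, a sodium-coupled glutamine carrier of neurons and growing cells, read -0.41, -0.54 and -0.54 in A_212 and 0.49, 0.41 and 0.46 in N_46. The difference of 0.95 ± 0.07 (SE, n = 3 arrays per line; limma adjusted p = 2.8e-06) was the largest of the 9. Slc38a2, a related carrier known to be induced when amino acids run short, read -0.13, 0.03 and -0.06 in A_212 and 0.22, -0.01 and 0.01 in N_46. Its lines overlapped, N_46 replicate 1 stood above the rest, and the difference of 0.13 ± 0.09 did not pass (95% interval -0.06 to 0.32, limma adjusted p = 0.27). That interval does not overlap the interval of Slc38a1 (0.79 to 1.11). Slc38a1, Slc38a2 and Slc38a4 follow each other among the measured genes of chromosome 15, and Slc38a4 differed by -0.24 ± 0.07 (limma adjusted p = 0.021). Slc38a5, a further glutamine carrier, differed by -0.01 ± 0.11 (limma adjusted p = 0.95).

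**Figure D3:**
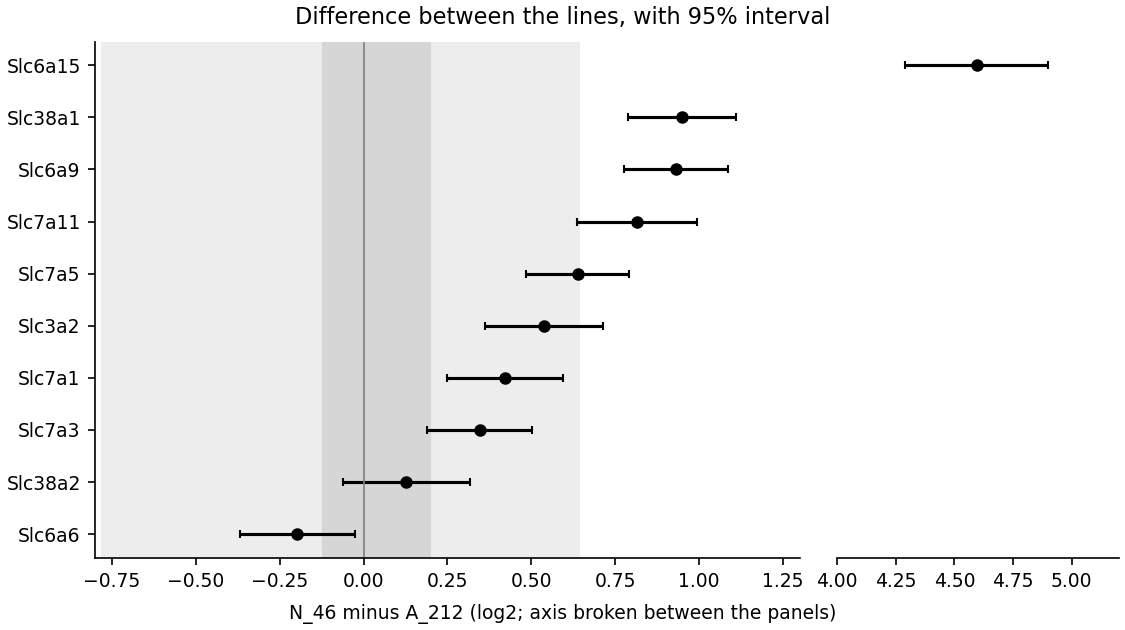
Difference N_46 minus A_212 (log2) of each carrier gene, with its 95% interval from limma over 3 arrays per line, and with the axis broken between the panels. Slc6a15 was selected on this difference, so its interval describes the spread between plates and is not a test. The dark band holds all genes from the 25th to the 75th percentile (-0.12 to 0.20) and the light band those from the 5th to the 95th (-0.78 to 0.64), and Slc6a15, Slc38a1, Slc6a9 and Slc7a11 lie above the upper edge of the light band.

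In order of difference, Slc6a15 was followed by Slc38a1 (0.95), Slc6a9 (0.93), Slc7a11 (0.81), Slc7a5 (0.64), Slc3a2 (0.54), Slc7a1 (0.42), Slc7a3 (0.35), Slc38a2 (0.13) and Slc6a6 (-0.20). After Slc6a15, the 95% intervals of neighbours in this order overlap down to Slc6a6.

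Of 39 other plasma membrane carriers for amino acids listed, 28 were measured, of which 3 were higher in N_46, 4 were higher in A_212 and 21 did not pass, with a median difference of 0.04. The share called was 25%, beside 39.2% of all genes. Against the 1.2-fold bound, 1 of the 28 was higher in N_46 and 3 in A_212, beside 912 and 1081 of all 12393 genes. Further light chains that pair with Slc3a2 did not pass, namely Slc7a6 (0.03 ± 0.07), Slc7a7 (-0.21 ± 0.08) and Slc7a8 (-0.04 ± 0.09). Their limma adjusted p-values were 0.79, 0.062 and 0.80. The neutral amino acid exchanger Slc1a5, a main glutamine carrier of growing cells, had a negative difference of -0.97 ± 0.09 (limma adjusted p = 1.0e-05), against the positive ones of Slc38a1 and Slc7a5. Its relative Slc1a4 differed by 0.29 ± 0.07, and the glutamate carriers Slc1a3 and Slc1a6 by 2.47 ± 0.11 and -4.74 ± 0.11 (limma adjusted p = 0.0073, 4.3e-08 and 4.1e-10).

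Of 30 genes listed as known to answer to ATF4, 28 were measured, of which 20 were higher in N_46 by limma, 0 higher in A_212 (also 0 at an unadjusted p under 0.05) and 8 did not pass, with a median difference of 0.41, and 20.9% of all genes were called higher in N_46. Against the 1.2-fold bound, 9 of the 28 were higher in N_46, beside 912 of all 12393 genes. Among those that did not pass, Phgdh differed by -0.06 and Wars by 0.16, and Wars read -0.75 on the 1 plain of its 4 probe sets. Atf4 itself differed by 0.42 ± 0.08 (limma adjusted p = 0.0015), with its 3 probe sets between 0.16 and 0.64. The largest differences were those of the pseudokinase gene Trib3 (1.55 ± 0.10), of Chac1, whose enzyme breaks down glutathione (1.33 ± 0.09), and of the mitochondrial folate enzyme gene Mthfd2 (1.03 ± 0.09), with limma adjusted p-values of 5.8e-07, 1.2e-06 and 7.0e-06. Promoter windows were found for 23 of the 28 genes, and 8 of the 23 held the CARE letters, namely Aars, Asns, Chac1, Gars, Iars, Tars, Trib3 and Yars. Of these, Gars was not called (0.08, limma adjusted p = 0.48). Among 9887 tested genes with a window, 309 held the letters. The ATF4 protein was not measured, and a part of ATF4 in the differences of the carriers was not tested.

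**Figure D4:**
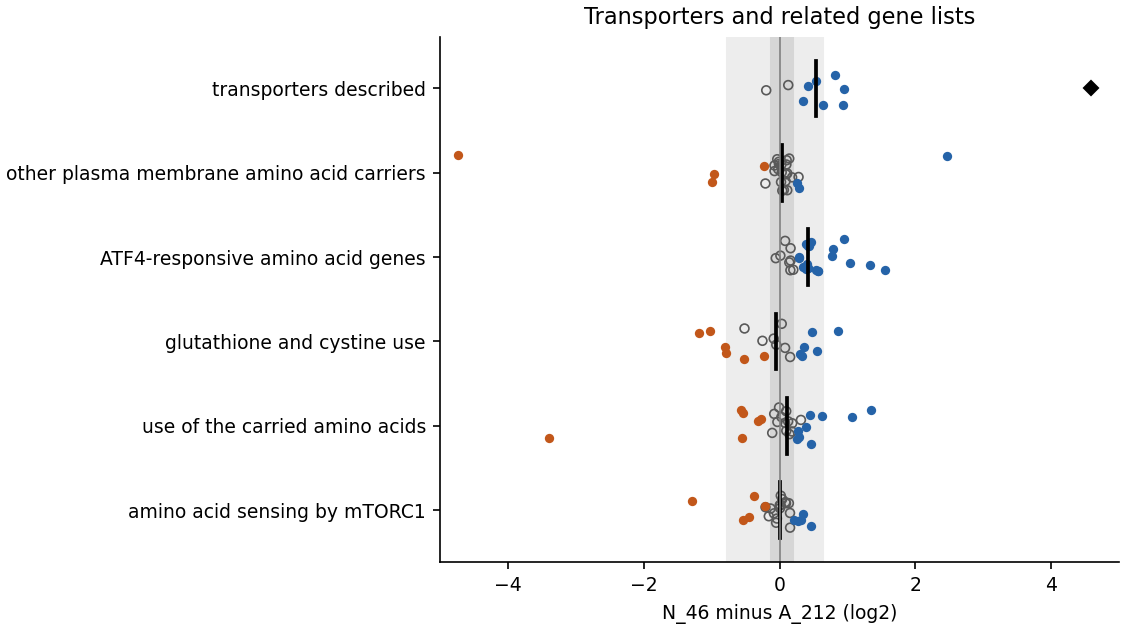
Differences N_46 minus A_212 (log2) of the carriers and of 5 gene lists (rows); points are genes, blue and orange if higher in N_46 and A_212 at limma adjusted p under 0.05, open if not past it, and the diamond is Slc6a15, which was not tested. Bars are medians, 0.54 for the 9 tested carriers, 0.41 for the ATF4 list and between -0.05 and 0.11 for the other 4 lists, and grey bands are percentiles of all genes (dark 25 to 75, light 5 to 95).

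Genes of glutathione and thiol metabolism and of the NRF2 response were called in both directions. Of 21 listed, 19 were measured, with 6 higher in N_46, 6 higher in A_212 and 7 not past the test. The share called was 63.2%, beside 39.2% of all genes (20.9% higher in N_46 and 18.3% in A_212). Against the 1.2-fold bound, 2 of the 19 were higher in N_46 and 4 in A_212, beside 912 and 1081 of all 12393 genes. The count higher in A_212 ranged from 4 to 7 with 1 array left out and was 8 with array weights. It includes Gclc, which passed narrowly (limma adjusted p = 0.049) with overlapping lines. Gclc read 0.13 in N_46 replicate 1 and -0.71 and -0.62 in N_46 replicates 2 and 3. Txnrd1, which encodes thioredoxin reductase (0.86 ± 0.10), the glutathione transferase gene Gsto1 (0.55 ± 0.10) and Nfe2l2, which encodes the transcription factor NRF2 (0.48 ± 0.10), were higher in N_46. Nqo1 (-1.19 ± 0.13) and Me1 (-1.02 ± 0.07), enzymes of quinone reduction and of NADPH supply, and the glutathione peroxidase gene Gpx1 (-0.81 ± 0.07) were higher in A_212. Limma adjusted p-values of these 6 lay between 1.8e-06 for Me1 and 0.0024 for Nfe2l2.

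Enzymes that use the other carried amino acids also went both ways. Of 32 listed, 28 were measured, with 9 higher in N_46, 6 higher in A_212 and 13 not past the test. The share called was 53.6%, beside 39.2% of all genes (20.9% higher in N_46 and 18.3% in A_212). Against the 1.2-fold bound, 3 of the 28 passed in each direction, beside 912 of all 12393 genes higher in N_46 and 1081 in A_212. Gldc, which encodes the glycine-cleaving decarboxylase and so uses the substrate of Slc6a9, differed by 1.35 ± 0.07 (limma adjusted p = 1.3e-07). Azin1, an activator of polyamine synthesis from ornithine (1.06 ± 0.09), and Bcat1, the cytosolic branched-chain aminotransferase gene (0.62 ± 0.09), were also higher in N_46. Cdo1, which encodes the enzyme of the first step from cysteine to taurine, was higher in A_212 at -3.40 ± 0.30 (limma adjusted p = 7.7e-06), and its A_212 arrays spread from 1.18 in replicate 1 to 2.62 in replicate 2. Glul, which encodes glutamine synthetase (-0.57 ± 0.10), and Asl, an enzyme of arginine synthesis (-0.55 ± 0.10), were higher in A_212 too.

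The machinery by which mTORC1 senses amino acids had differences in both directions. Of 37 genes listed, 26 were measured, with 5 higher in N_46, 5 higher in A_212 and 16 not past the test, a share of 38.5% called beside 39.2% of all genes. The translation repressor gene Eif4ebp1 (0.46 ± 0.08) and Mios (0.31 ± 0.07), which encodes a subunit of the GATOR complex, were higher in N_46. The stress-induced inhibitor gene Sesn3 (-1.29 ± 0.11), Lamtor4, a part of the lysosomal scaffold (-0.53 ± 0.10), and Tsc2, which encodes a subunit of a complex that restrains growth signalling (-0.45 ± 0.08), were higher in A_212. Limma adjusted p-values of these 5 lay between 4.4e-06 for Sesn3 and 0.0037 for Mios. The count higher in N_46 fell to 3 without A_212 replicate 2, N_46 replicate 2 or N_46 replicate 3. Against the 1.2-fold bound 0 were higher in N_46 (1 at an unadjusted p under 0.05 of treat) and 1 in A_212. For all 12393 genes these counts were 912 and 1081.

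Markers of other cell types were compared in the same fit, in which 39.2% of all genes were called. Among markers of fibroblasts and mesenchyme, 11 of 18 were higher in A_212, led by Cdh11 (-5.74), 2 were higher in N_46 and 5 did not pass. The mean centred value of the 18 per array ran from 0.82 to 1.02 in A_212 and from -0.97 to -0.85 in N_46. Of 11 neuronal markers measured, 2 were higher in A_212, 1 in N_46 and 8 did not pass, and of 8 astrocyte markers 2 were higher in each line, Slc1a3 among them. Of 8 endothelial markers, 3 were higher in A_212, led by Eng (-2.44), and 1 in N_46. Of 8 microglia and macrophage markers, 1 was higher in each line, Tmem119 (-3.26) being the one in A_212, and of 7 oligodendrocyte lineage markers 2 were higher in A_212 and 0 in N_46 by limma (1, Mbp, at an unadjusted p under 0.05). Which of these markers are at background cannot be read from centred values, and their part in the differences of the carriers was not tested.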

How the data were processed

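Values of 6 arrays (22690 probe sets) were used as the authors deposited them and were taken to be in log2 units. Per the submitters' processing notes they come from RMA, without a version. No source used here describes the centring, and the median over the 6 arrays was 0 for every probe set (largest size 5e-07). By the platform annotation, 20380 probe sets had 1 gene, 691 several and 1555 none, and 64 were controls. The value of a gene was the mean of all probe sets named for it alone, giving 12393 genes. Through gene identifiers, 20351 of the 20380 were found in the RefSeq gene table, and 0 symbols changed.

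The test was limma on all 6 arrays (lmFit, eBayes; two-sided; adjusted p under 0.05 after Benjamini-Hochberg over all genes), after a test on simulated data. Precision is limited by the number of arrays. The carriers and gene lists were chosen with earlier results of these data known. The genes named besides the 10 carriers were up to 3 each way per list with the largest differences among those past the threshold and without overlap, 10 genes fixed by name (Slc7a2, Slc7a6, Slc7a7, Slc7a8, Slc38a4, Slc38a5, Slc1a4, Slc1a5, Atf4 and Nfe2l2), the 3 genes most like Slc6a15, and its measured neighbours; 1 gene that this rule gave is not reported here. The labels give no scan or plate batch. Shared replicate numbers did not pair the plates. R 4.3.3, limma 3.58.1, Python 3.11.15, pandas 2.3.3, numpy 2.4.6 and matplotlib 3.10.9 were used.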

Additional observations from a re-analysis of the deposited data

How the results depend on the processing

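The 9 tested carriers had 7 calls higher in N_46, and the same 7 genes were called with arrays set to a common median or 75th percentile, array weights, robust eBayes, medians of probe sets and each array left out. Plain probe sets alone gave 6, since Slc3a2 has none, and treat against a 1.2-fold difference gave 5, without Slc7a1 and Slc7a3. Slc38a2 passed in none of them, and the difference of Slc6a15 lay between 4.44 and 4.70 with 1 array left out. Carriers called higher in A_212 went from 0 to 1 (Slc6a6) with a common median (-0.23, limma adjusted p = 0.038) or 75th percentile (-0.21, 0.046), and ranged from 0 to 1 with 1 array left out. Under treat, calls higher in N_46 fell to 1 among other carriers, 9 in the ATF4 list, 2 in the glutathione list, 3 among enzymes of the carried amino acids and 0 in the mTORC1 list, and calls higher in A_212 to 3 among those enzymes and 1 in the mTORC1 list, since treat asks for more than a small difference. Over all 12393 genes, treat called 912 higher in N_46 and 1081 higher in A_212. With plain probe sets alone the glutathione list had 3 genes higher in N_46, with 15 genes left to test, and the ATF4 list had 1 higher in A_212, Wars (-0.75 on 1 of its 4 probe sets). Calls higher in N_46 in the mTORC1 list ranged from 3 to 4 with 1 array left out. Same-numbered plates did not deviate together (Pearson r across genes -0.03, -0.01 and 0.09), and a replicate block left the carriers at 7 calls higher in N_46 and 0 higher in A_212, with 2576 genes of all called higher in N_46 beside 2586.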
